A study of Mus musculus with 14 samples.

Results

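The expression of 10 genes commonly used to recognise cancer-associated fibroblasts was followed in CT26 tumors: Acta2, Pdgfra, Pdgfrb, Fap, Postn, Thy1, Dcn, Lum, Pdpn, and Il6. They were chosen by name, out of 53801 genes with values in each tumor, and all 10 had enough counts to be tested. Bulk RNA-seq was available for 14 subcutaneous tumors from 11 mice. All tumors grew from CT26, a colon carcinoma cell line of Balb/c origin, which had been labelled with DNA barcodes and transplanted into both flanks of female Balb/c mice aged 6 to 8 weeks. From day 7, mice received control IgG (clone 2A3) or anti-PD-1 (clone 1A12), an antibody that blocks an inhibitory receptor of T cells, every 3 days for 5 doses, with harvest 3 days after the final dose. Control IgG had been given to 4 mice, which provided 5 tumors. Of the mice given anti-PD-1, 4 provided 5 responder tumors and 3 provided 4 non-responder tumors. Responders and non-responders thus received the same antibody and were separated by the authors by tumor size at the end of treatment, so that response was not assigned by the experimenter and goes together with tumor size.

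Cancer-associated fibroblasts are the collagen-producing stromal cells of a tumor. Myofibroblast-like cells contain contractile actin filaments and lay down matrix near cancer cells under TGF-β, whereas inflammatory fibroblasts secrete cytokines such as IL-6 in response to IL-1 and TNF. Acta2 and Postn are read here as markers of the former, Il6 and Pdgfra as markers of the latter, and the other 6 as markers of fibroblasts in general. None of these genes is restricted to fibroblasts: Acta2 and Pdgfrb are also made by pericytes and vascular smooth muscle, Thy1 by mouse T cells, Pdpn by lymphatic endothelium and some macrophages, and Il6 by many cells. In bulk tumor RNA, fewer cells of a type and less RNA per cell cannot be told apart. The CT26 cells are also part of each tumor, and their share in the levels of these markers was not tested.

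Total expected counts were 33237744 to 48481461 per tumor, so that 3 counts corresponded to at most 0.0903 CPM (counts scaled to library size). An expected count is the estimated number of fragments from a gene. Genes of skeletal muscle summed to 1303 CPM in control IgG tumor 14R and 768 CPM in non-responder 33R, against 26.4 to 439.6 CPM in the other 12 tumors, and genes of skin epidermis summed to between 7.88 and 983 CPM. Results are therefore also given without 14R and 33R where this changed them. Of the carcinoma markers, Krt18, an epithelial keratin, had medians of 11.3 TPM in control IgG tumors, 9.49 TPM in responders, and 10.2 TPM in non-responders. Epcam, an epithelial adhesion molecule, was at 2.45, 1.75, and 1.305 TPM, and Cldn7, a tight junction gene, was too low to be tested. Krt8, another epithelial keratin, was at 7.7, 2.84, and 4.225 TPM. All 7 tested carcinoma genes had log2 fold changes below 0 over control IgG tumors, and none was called. Their median log2 fold change was -0.50 in responders and -0.59 in non-responders. TPM corrects the counts for gene length and allows levels of different genes to be compared, whereas CPM compares 1 gene between tumors.

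RefSeq promoter sequences of the GRCm38.p6 build were searched for 5 of the 10 genes, Acta2, Pdgfra, Postn, Pdpn, and Il6. Fap, Thy1, Dcn, and Lum were not among those listed, and the promoter of Pdgfrb is not reported here. The 250 bases upstream of the transcription start are printed for Postn, which rose in responders, and for Il6, which varied with Dcn across tumors. They are read 5′ to 3′ on the strand of the gene, and capitals mark the motifs found.
Postn, chr3:54360857-54361106, plus strand: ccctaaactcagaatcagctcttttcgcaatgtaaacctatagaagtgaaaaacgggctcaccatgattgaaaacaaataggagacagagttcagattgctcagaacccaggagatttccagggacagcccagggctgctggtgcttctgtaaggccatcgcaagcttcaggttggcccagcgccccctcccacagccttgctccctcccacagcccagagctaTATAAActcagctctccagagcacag
Il6, chr5:30012864-30013113, plus strand: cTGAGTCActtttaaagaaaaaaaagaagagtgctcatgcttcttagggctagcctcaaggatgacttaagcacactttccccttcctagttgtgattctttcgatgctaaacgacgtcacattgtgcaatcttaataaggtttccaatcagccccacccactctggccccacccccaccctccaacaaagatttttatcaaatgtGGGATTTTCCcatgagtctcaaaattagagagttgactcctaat
The motifs searched on both strands were the TATA box (TATAAA), the AP-1 site (TGANTCA), the NF-κB consensus, and the CArG box bound by serum response factor. The CArG box was searched only as CCWWWWWWGG, where W is A or T. Postn had a TATA box from 26 to 21 bases before the start, a motif that 12.4% of 32851 mouse promoters of this length contain. Il6 had an NF-κB match, GGGATTTTCC, from 44 to 35 bases before the start and an AP-1 match, TGAGTCA, at the distal end of the window. These motifs occur in 7.25% and 6.75% of all promoters, and the CArG box in 1.47%. No exact match to any of the 4 motifs was found in the windows of Acta2, Pdgfra, or Pdpn. The Acta2 window, whose start was 217 bases from the GENCODE start, held CCCTATATGG and CCTTGTTTGG. Each has a core letter that is neither A nor T, so neither was counted as a CArG box. A match describes the letters of the window and not the binding of a factor.

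The levels of the 10 markers spanned a wide range. Dcn, which encodes decorin, a small proteoglycan that binds collagen and TGF-β, was the most abundant, at a median of 158 TPM over the 14 tumors and a range of 102 to 287 TPM. Pdpn, a mucin-like membrane glycoprotein, followed at 57.5 TPM, then Postn, a secreted matrix protein also called periostin, at 34.8 TPM, and Thy1, a glycolipid-anchored surface protein, at 31.1 TPM. Acta2, the smooth muscle actin of myofibroblasts, had a median of 18.4 TPM. The PDGF receptor genes Pdgfra and Pdgfrb were at 13.0 and 10.2 TPM, and Lum, which encodes the proteoglycan lumican, was at 12.2 TPM. Fap, a serine protease of activated fibroblasts, was at 1.33 TPM, and Il6 was lowest at 0.76 TPM.

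The order of neighbouring genes did not hold in every tumor. Dcn exceeded Pdpn in 14 of 14 tumors, by 1.86-fold to 5.01-fold, and Thy1 exceeded Acta2 in 14 of 14. Postn exceeded Thy1 in 8 of 14 tumors, and Pdgfra exceeded Lum in 6 of 14, so these pairs changed places between tumors. Pdpn was the steadiest marker, with its highest tumor at 1.48 times its lowest. Postn was the most variable at 5.06 times, followed by Il6 at 4.69 times and Fap at 3.99 times.

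Of the 10 markers, Postn rose and Dcn fell in responders relative to control IgG tumors, and the other 8 did not pass the test in that comparison. Postn (ENSMUSG00000027750, chr3:54361109-54391037, plus strand) was measured at 62.1, 38.0, 72.1, 54.7, and 52.1 CPM in control IgG tumors 14L, 14R, 16R, 17R, and 20R. In responders 24L, 26R, 30L, 30R, and 35L it was at 159.7, 83.8, 141, 114, and 98.8 CPM. Every responder was above every control IgG tumor. Its level was 2.14-fold higher in responders (log2 fold change 1.10, SE 0.28, 95% interval 0.50 to 1.70, adjusted p = 0.0192). The rise did not pass the test without responder 24L, the highest tumor (adjusted p = 0.0583), without control IgG tumor 20R (adjusted p = 0.0531), or with flank as a covariate (adjusted p = 0.0556), although the log2 fold change stayed at 0.89 or more in these fits.

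Dcn (ENSMUSG00000019929, chr10:97479609-97518143, plus strand) was at 322, 400.4, 218, 281, and 219 CPM in the same 5 control IgG tumors. The responders were at 145, 122, 156, 157, and 201 CPM, all below the lowest control IgG tumor. Dcn was at 0.542 times the control IgG level in responders (log2 fold change -0.88, SE 0.18, 95% interval -1.26 to -0.50, adjusted p = 0.00573), and it passed the test with each of the 14 tumors left out in turn, with log2 fold changes of -0.99 to -0.73. Without 14R and 33R together, its log2 fold change was -0.73 (adjusted p = 0.00818) and that of Postn 0.99 (adjusted p = 0.0333).

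Postn and Dcn were the 2 markers whose values did not overlap between responders and control IgG tumors. Among all 16287 genes tested, 13.2% were called in this comparison, 7.88% higher and 5.3% lower, and 15.1% did not overlap, so that 2 of 10 markers, 1 in each direction, is close to the share of all genes.

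**Figure D1:**
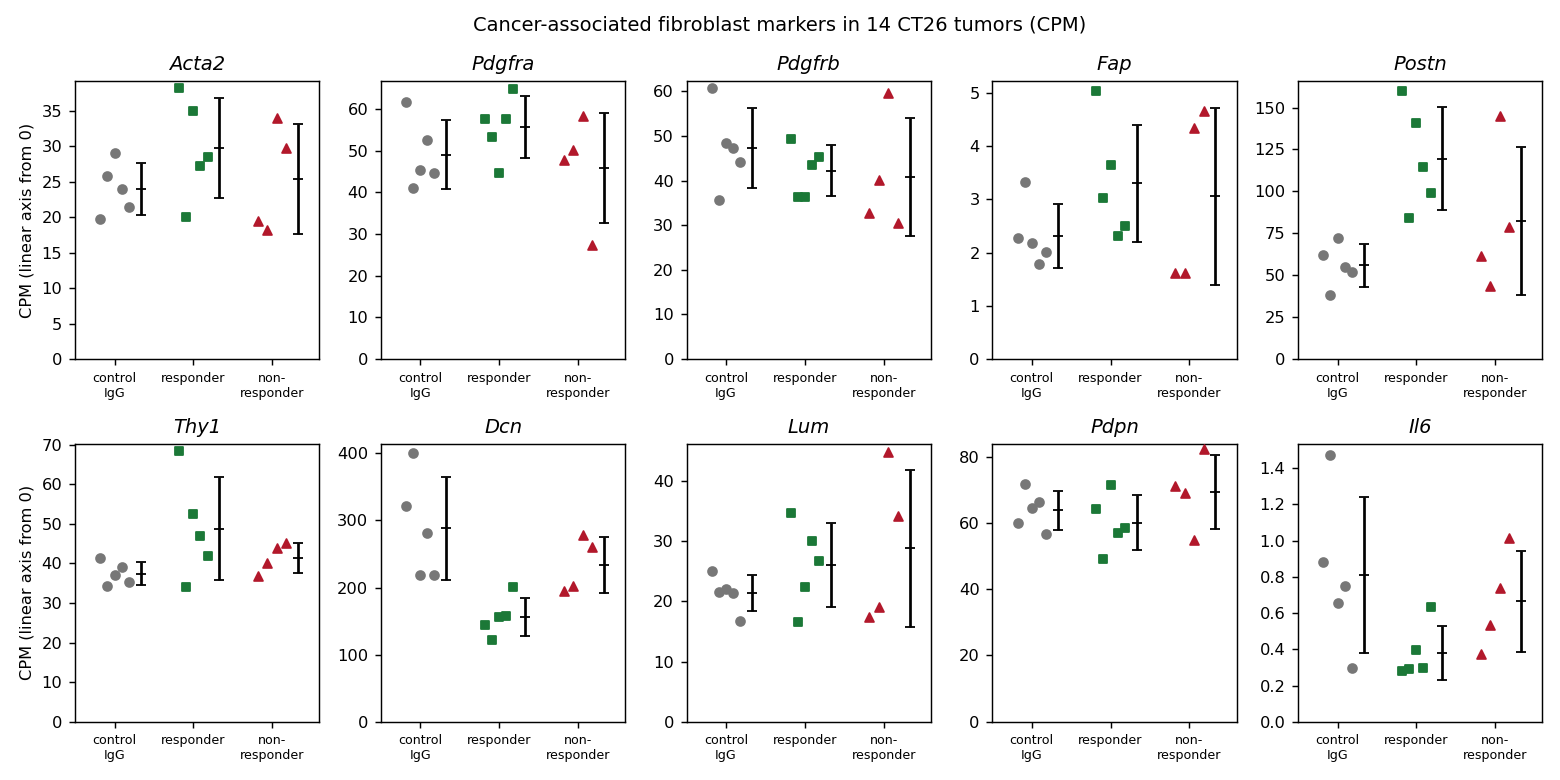
CPM of each marker in each tumor, on linear axes that start at 0, for control IgG tumors (circles), responders (squares), and non-responders (triangles). Black bars give the mean and SD of each group. Postn in responders and control IgG tumors, and Dcn in the same groups, are the only markers whose points do not overlap between these groups.

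Lum and Dcn are neighbours on chromosome 10, with 46984 bases between them, and both encode small leucine-rich proteoglycans. Dcn was called and Lum was not, and the difference between them was not tested. Lum (ENSMUSG00000036446, chr10:97565128-97572703, plus strand) was at 25.0, 21.5, 22.1, 21.4, and 16.8 CPM in control IgG tumors and at 34.7, 16.6, 22.3, 30.0, and 26.7 CPM in responders. The groups overlapped, with a log2 fold change of 0.29 (SE 0.25, adjusted p = 0.484). On the TPM scale, Dcn exceeded Lum by 14.4-fold to 27.2-fold in control IgG tumors and by 6.09-fold to 11.1-fold in responders. In the same way, the ratio of Postn to Dcn was 0.0629 to 0.210 in control IgG tumors (median 0.125), 0.317 to 0.730 in responders (median 0.455), and 0.134 to 0.335 in non-responders (median 0.196). Dcn accounted for 48.4% to 65.6% of the summed TPM of the 10 markers in control IgG tumors and for 29.5% to 44.1% in responders. These ratios are descriptions of the levels already given and were not tested.

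**Figure D2:**
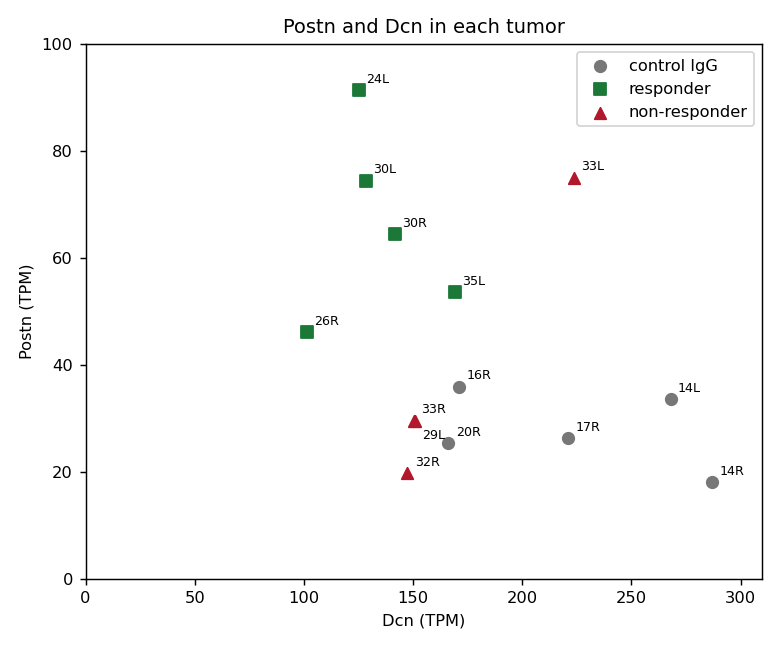
Postn against Dcn in TPM for the 14 tumors, labelled by mouse number and flank, on linear axes from 0. Responders (squares) lie at 46.1 to 91.4 TPM of Postn and 102 to 169 TPM of Dcn, control IgG tumors (circles) at 18.1 to 35.9 and 166 to 287 TPM, and non-responders 29L and 33R (triangles) nearly coincide, while non-responder 33L is high in both genes.

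Thy1 and Acta2, which are shared with immune and vascular cells, were not called. Thy1 (ENSMUSG00000032011), a marker of fibroblasts and of mouse T cells, was at 41.5, 34.3, 37.0, 39.1, and 35.4 CPM in control IgG tumors and at 68.5, 34.1, 52.5, 46.9, and 42.0 CPM in responders. Responder 26R was below every control IgG tumor and the other 4 responders were above all of them (log2 fold change 0.38, SE 0.14, adjusted p = 0.0944). Without 26R, the difference passed the test (log2 fold change 0.49, adjusted p = 0.0238). The summed level of 8 T cell markers was 53.5 to 97.3 CPM in responders, 24.0 to 51.0 in control IgG tumors, and 30.4 to 37.5 in non-responders. Responders 26R and 24L were the lowest and highest responders both for this sum and for Thy1. The sum of 26R was nevertheless above every control IgG tumor, unlike its Thy1. Responders 30L, 30R, and 35L had sums of 64.8, 70.3, and 66.5 CPM, an order unlike that of their Thy1. The part of T cells in the Thy1 values was not tested. Acta2 (ENSMUSG00000035783) was at 19.8, 25.8, 29.1, 24.0, and 21.4 CPM in control IgG tumors and at 38.2, 20.1, 35.0, 27.3, and 28.5 CPM in responders, which overlapped (log2 fold change 0.31, SE 0.19, adjusted p = 0.325).

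Il6 (ENSMUSG00000025746, chr5:30013114-30019981, plus strand), the inflammatory cytokine of the set, was low in all tumors, at 10 to 69 counts. Il6 was at 0.880, 1.47, 0.657, 0.748, and 0.297 CPM in control IgG tumors and at 0.278, 0.292, 0.396, 0.298, and 0.632 CPM in responders. Of the 5 control IgG tumors, 4 were above every responder, and 20R was within the range of the responders. Its log2 fold change of -1.09 (SE 0.40, 95% interval -1.95 to -0.23) was the lowest of the 10 markers but did not pass the test (adjusted p = 0.0880). Without 20R it passed (log2 fold change -1.30, adjusted p = 0.0454), and without 14R, the highest tumor, it was at -0.75 (adjusted p = 0.239).

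The remaining markers overlapped between responders and control IgG tumors. Fap (ENSMUSG00000000392) was at 1.78 to 3.33 CPM in control IgG tumors and 2.30 to 5.04 CPM in responders (log2 fold change 0.51, SE 0.32, adjusted p = 0.331). Pdgfra (ENSMUSG00000029231), a receptor of PDGF-A and PDGF-C among others, was at 41.0 to 61.8 and 44.6 to 64.8 CPM (log2 fold change 0.18, adjusted p = 0.538). Pdgfra overlaps an antisense gene, Gm42802, on the other strand, and the counting was not stated to use strand. Pdgfrb (ENSMUSG00000024620), a receptor of PDGF-B among others, was at 35.7 to 60.6 and 36.4 to 49.4 CPM (log2 fold change -0.16, adjusted p = 0.593). Pdpn (ENSMUSG00000028583) had the narrowest interval, with a log2 fold change of -0.09 and a 95% interval of -0.33 to 0.16 (adjusted p = 0.672). At unadjusted p under 0.05, 4 of the 10 markers were counted in this comparison, against 27.9% of all genes.

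**Figure D3:**
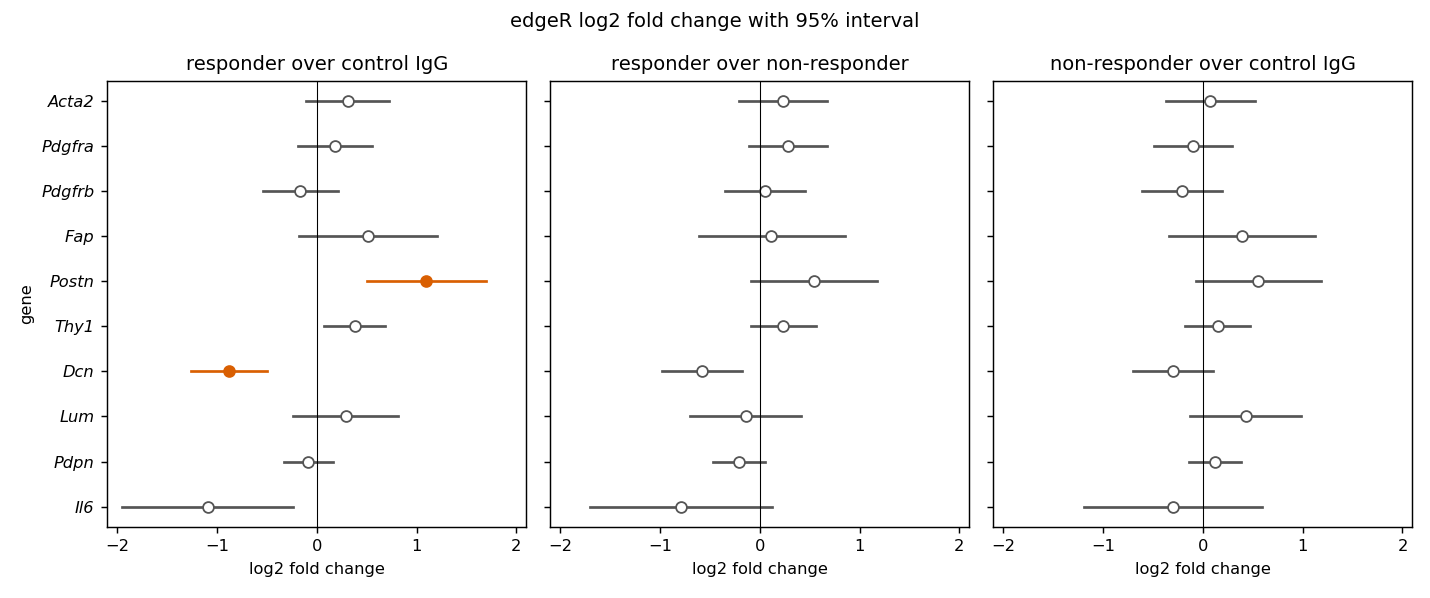
Log2 fold change of each marker in the 3 comparisons from edgeR, with 95% intervals as lines; filled orange points passed an adjusted p under 0.05. Only Postn (1.10) and Dcn (-0.88) in responders over control IgG tumors are filled, and the intervals of Il6 are the widest.

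Between responders and non-responders, which had received the same antibody, none of the 10 markers was called by edgeR, against 9.9% of all genes. No marker was without overlap between these groups, against 12.8% of all genes. Dcn came closest. The non-responders 29L, 32R, 33L, and 33R were at 194, 203, 278, and 260.3 CPM, and responder 35L, at 201 CPM, was the only responder above any of them. The log2 fold change was -0.58 (SE 0.19, 95% interval -0.98 to -0.18, adjusted p = 0.0613), and Dcn was the 1 marker of 10 with an unadjusted p under 0.05, against 27.8% of all genes. Dcn was called in 3 of 16 alternatives, among them DESeq2 (adjusted p = 0.0221) and limma-voom with mouse as a random effect (adjusted p = 0.0290, with an estimated correlation within a mouse of -0.28), and in 3 of 14 fits without 1 tumor, those without 14R, 29L, or 35L. Limma-voom without the mouse did not call Dcn (limma-voom adjusted p = 0.0608). It called 1491 genes, against 2973 with the mouse, so the fit with the mouse was the less strict of these. With 1 library per mouse Dcn was not called (adjusted p = 0.133), and on log2(TPM + 1) its difference was -0.33 (limma adjusted p = 0.221).

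Postn in non-responders was at 61.5, 43.5, 145, and 78.8 CPM. Non-responders 29L, 32R, and 33R were below every responder, whereas 33L was within their range, and Postn differed by 0.54 on the log2 scale (SE 0.30, 95% interval -0.09 to 1.17, adjusted p = 0.249). Without 33L it was 0.98 and passed the test (adjusted p = 0.0304). Il6 was at 0.374, 0.533, 0.736, and 1.01 CPM in non-responders (log2 fold change -0.79, SE 0.43, adjusted p = 0.244). The other 7 markers had log2 fold changes between -0.21 for Pdpn and 0.28 for Pdgfra, with adjusted p-values of 0.288 to 0.895.

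The comparison of non-responders with control IgG tumors used the same control tumors as that of responders. No marker was called, and none had an unadjusted p under 0.05. Among all genes, edgeR called 0.0%, with 758 genes at an unadjusted p under 0.05 and 18 genes called by DESeq2, and 1.25% did not overlap, none of them a marker. Postn had a log2 fold change of 0.56 (SE 0.29, 95% interval -0.07 to 1.18) and Dcn of -0.30 (SE 0.19, 95% interval -0.70 to 0.10), each with an adjusted p of 0.932. Lum was at 17.4, 19.0, 44.7, and 34.1 CPM in non-responders 29L, 32R, 33L, and 33R, with both tumors of mouse 33 above every control IgG tumor and the other 2 within the control range (log2 fold change 0.43, SE 0.26, adjusted p = 0.932). Acta2, at 19.5, 18.1, 34.0, and 29.8 CPM, and Fap, at 1.62, 1.62, 4.33, and 4.66 CPM, were above every control IgG tumor in mouse 33 and below every control IgG tumor in the other 2.

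Mice 14, 30, and 33 gave tumors from both flanks. In non-responder mouse 33, Pdgfra was at 58.2 CPM on the left and 27.3 CPM on the right, Pdgfrb at 59.7 and 30.5 CPM, and Postn at 145 and 78.8 CPM. All 3 were also higher on the left in control IgG mouse 14, with Pdgfra at 61.8 and 41.0 CPM, Pdgfrb at 60.6 and 35.7 CPM, and Postn at 62.1 and 38.0 CPM. In responder mouse 30, the receptors were lower on the left, at 44.6 and 57.7 CPM for Pdgfra. Postn was again higher on the left, at 141 and 114 CPM, and so in each of these mice. Flank was not balanced between groups: most control IgG tumors came from the right flank and most responders from the left. With flank as a covariate, the rise of Postn in responders over control IgG tumors did not pass the test, as given above. The right tumors 14R and 33R were those with the most skeletal muscle transcripts. They also stood apart from the other tumors of their group over all genes, as given below. The part of muscle and of these wider differences in the flank values was not tested.

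In responders over control IgG tumors, 3 of 12 genes of the myofibroblast list were called, against 13.2% of all genes. Of these, 2 were higher and 1 was lower, with a median log2 fold change of 0.41, against -0.01 over all genes. Postn and Lrrc15, a membrane protein of matrix-producing fibroblasts, were higher (Lrrc15 log2 fold change 1.51, SE 0.42, adjusted p = 0.0293), and Cald1, which encodes the actin-binding protein caldesmon, was lower (-0.39, SE 0.09, adjusted p = 0.00990). The contractile genes Acta2, Tagln, Myl9, Tpm1, Tpm2, and Cnn1 did not pass the test, with log2 fold changes from -0.23 for Tpm2 to 0.57 for Cnn1. Ctgf, a matricellular target of TGF-β and YAP, was at -0.72 (adjusted p = 0.0572). None of the 12 was called between responders and non-responders (median 0.13, against 0.01 over all genes).

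Of 16 genes of the inflammatory fibroblast list, 2 were called higher and 3 lower in responders over control IgG tumors, against 7.88% and 5.3% of all genes, with a median log2 fold change of 0.05. C3, the central complement component, was at 309.5 ± 81.4 CPM (SD, n = 5) in responders, 88.5 ± 36.8 CPM (SD, n = 5) in control IgG tumors, and 84.2 ± 27.7 CPM (SD, n = 4) in non-responders (log2 fold change over control IgG 1.81, SE 0.29, adjusted p = 0.00189; over non-responders 1.88, SE 0.32, adjusted p = 0.00666). Clec3b, which encodes the plasminogen-binding protein tetranectin, was also higher (1.31, SE 0.34, adjusted p = 0.0216). The IL-6 family cytokines Il11 (-1.01, SE 0.20, adjusted p = 0.00473) and Lif (-0.69, SE 0.12, adjusted p = 0.00319) and the hyaluronan synthase Has1 (-0.91, SE 0.28, adjusted p = 0.0467) were lower. The chemokines Cxcl1 (-1.07, adjusted p = 0.0675) and Cxcl12 (0.88, adjusted p = 0.0544) had values of opposite sign, and neither passed. C3 is also made by macrophages. Of 9 macrophage markers, all had log2 fold changes over control IgG tumors above 0, and 1, Adgre1, was called higher, against 7.88% of all genes. Adgre1 was also called higher than in non-responders (0.51, SE 0.10, adjusted p = 0.0132). The summed levels of the 9 markers were 4269 to 5106 CPM in responders, 3420 to 4057 CPM in control IgG tumors, and 3612 to 4996 CPM in non-responders. The part of macrophages in the C3 result was not tested.

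**Figure D4:**
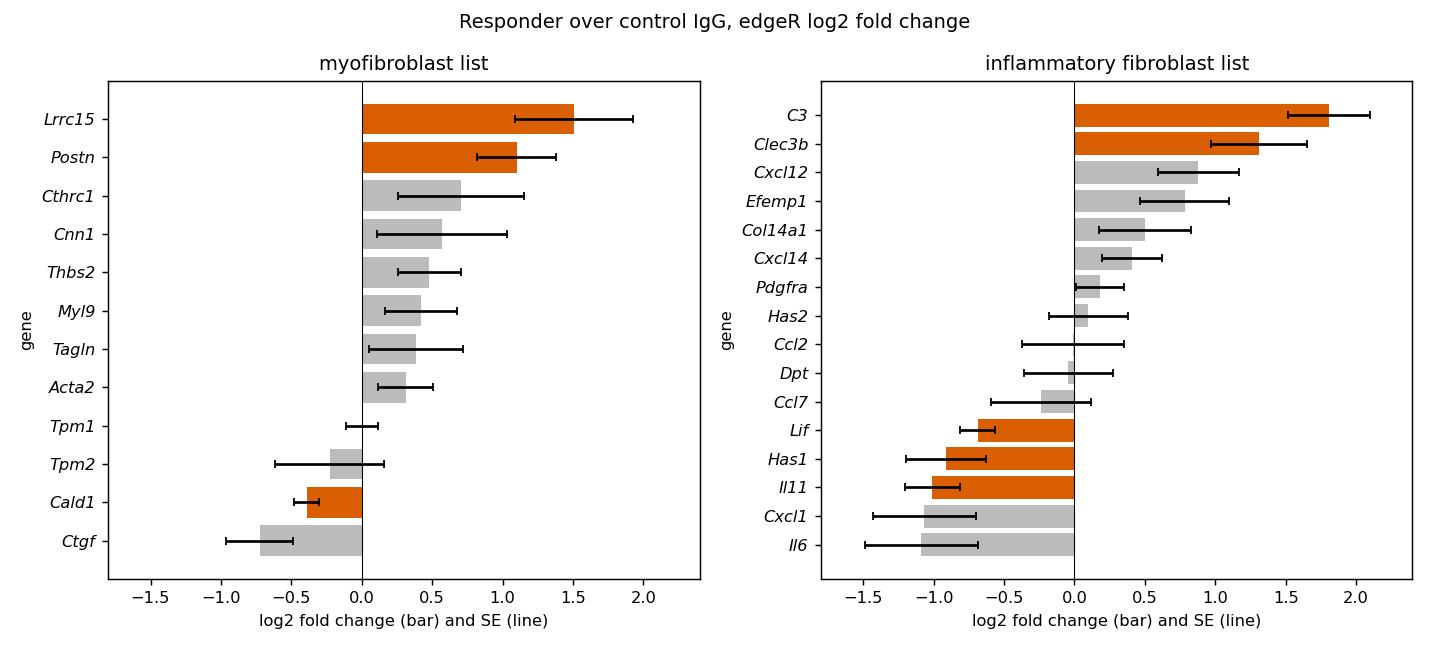
Log2 fold change of responders over control IgG tumors for the 12 genes of the myofibroblast list and the 16 genes of the inflammatory fibroblast list, with SE as black lines; orange bars passed an adjusted p under 0.05. Each list holds called genes in both directions, from Il11 at -1.01 to C3 at 1.81.

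The balance between both lists was described in each tumor as the mean log2 CPM of the myofibroblast genes minus that of the inflammatory genes. It was 0.50, 0.42, 1.17, 0.92, and 1.17 in control IgG tumors 14L, 14R, 16R, 17R, and 20R. Responders 24L, 26R, 30L, 30R, and 35L were at 1.25, 1.08, 1.16, 1.11, and 0.87, and non-responders 29L, 32R, 33L, and 33R were at 1.16, 1.10, 1.16, and 1.17. The means were 0.84 ± 0.36 (SD, n = 5) in control IgG tumors, 1.09 ± 0.14 (SD, n = 5) in responders, and 1.15 ± 0.03 (SD, n = 4) in non-responders. The groups differed by less than the SD of the control IgG tumors. Responders and non-responders each differed from control IgG tumors by more than their own SD, and the balance was not tested. The lowest values were those of both tumors of mouse 14.

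The other partners of the markers were followed as whole lists. Of the PDGF ligands that bind Pdgfra and Pdgfrb, 2 of 4 were called lower in responders over control IgG tumors, against 5.3% of all genes. These were Pdgfa (log2 fold change -0.43, SE 0.12, adjusted p = 0.0299) and Pdgfc (-0.58, SE 0.15, adjusted p = 0.0223), and Pdgfc was also lower than in non-responders (-0.69, SE 0.16, adjusted p = 0.0188). Neither receptor was called in any of the 3 comparisons. Of the small leucine-rich proteoglycans, 10 of 12 were tested, and 3 were called higher and 1, Dcn, lower, against 7.88% and 5.3% of all genes. Fmod, which encodes the collagen-binding fibromodulin, was higher (2.90, SE 0.57, adjusted p = 0.00515), at 5.31 ± 3.62 CPM (SD, n = 5) in responders and 0.703 ± 0.426 CPM (SD, n = 5) in control IgG tumors. Podn (1.45, SE 0.35, adjusted p = 0.0150) and Prelp (1.27, SE 0.18, adjusted p = 0.000992) were higher as well, and Prelp, at 105 ± 9.18 CPM (SD, n = 5) in responders, was the only member of this list called higher than in non-responders (1.10, SE 0.19, adjusted p = 0.00741). Of 10 genes of the fibrillar matrix, 2 were called higher in responders than in control IgG tumors and none lower, against 7.88% and 5.3% of all genes. These were the type I collagen genes Col1a1 (1.06, SE 0.31, adjusted p = 0.0346) and Col1a2 (0.48, SE 0.13, adjusted p = 0.0264). Over non-responders, Col1a2 was the only gene of this list called (0.47, SE 0.14, adjusted p = 0.0475), against 9.9% of all genes.

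Around Il6, the called receptor gene was higher and the called cytokines were lower. Of 13 genes of the IL-6 family and its signalling, 1 was called higher and 3 lower in responders over control IgG tumors, against 7.88% and 5.3% of all genes. The higher gene was Lifr, a receptor of leukemia inhibitory factor (0.77, SE 0.17, adjusted p = 0.00985), and the lower ones were the cytokines Il11, Lif, and Clcf1 (-0.65, SE 0.12, adjusted p = 0.00355). Il6ra, the IL-6 receptor, was at 0.58 (SE 0.19, adjusted p = 0.0534), and Socs3, a feedback target of STAT3, at 0.13 (adjusted p = 0.379). Over non-responders, Lifr (0.70, adjusted p = 0.0302) and Jak1 (0.38, adjusted p = 0.0357) were higher and Clcf1 (-0.61, adjusted p = 0.0139) was lower. Of 5 genes of IL-1 and TNF, inducers of Il6, 1 was called lower than in control IgG tumors, against 5.3% of all genes. This was the receptor gene Il1r1 (-0.31, SE 0.08, adjusted p = 0.0242). Of the 5 tested partners of podoplanin, 1, Cd44, was lower than in control IgG tumors (-0.54, SE 0.08, adjusted p = 0.000992), against 5.3% of all genes. It was also lower than in non-responders (-0.27, SE 0.08, adjusted p = 0.0475), against 4.82% of all genes. Pdpn was called in neither comparison. None of the genes of these lists was called between non-responders and control IgG tumors, a comparison in which edgeR called 0.0% of all genes.

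Other cell types were followed by their own markers, beside the results above. All 8 T cell markers were called higher in responders than in control IgG tumors, and 7 of 8 than in non-responders. Among all genes, 7.88% were called higher and 5.3% lower over control IgG tumors, and 5.08% and 4.82% over non-responders. Of 8 endothelial genes, 3 were called higher than in control IgG tumors and 1, Eng, than in non-responders (0.48, SE 0.13, adjusted p = 0.0308). Of 10 genes of pericytes and vascular smooth muscle, the other source of Acta2 and Pdgfrb, 1, Kcnj8, was called lower in both comparisons. Their summed levels were 120 to 181 CPM in responders, 148 to 210.0 CPM in control IgG tumors, and 124 to 192 CPM in non-responders. Of 6 lymphatic endothelial genes, 4 were tested and none was called, and Prox1, the transcription factor that defines these cells, was at 1 to 10 counts per tumor. None of 10 skin epidermis, 8 skeletal muscle, 6 adipocyte, or 7 tested carcinoma genes was called. With the mean T cell marker level as a covariate, the log2 fold change over control IgG tumors was 1.12 for Postn (adjusted p = 0.768) and -1.38 for Dcn (adjusted p = 0.245). In that fit edgeR called none of the 16287 genes in either comparison of responders and 2 between non-responders and control IgG tumors, and since T cell markers separate responders from the other tumors, the covariate and the group cannot be told apart.

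Across the 14 tumors, after the mean of each group was taken out, 1 of 45 pairs of markers passed the permutation test within groups by Pearson's r and 2 by Spearman's rho. Dcn and Il6 passed by both, and were high in the same tumors of a group (Pearson's r = 0.87, permutation p = 0.00048, adjusted p = 0.0216; Spearman's rho = 0.83, permutation p = 0.00122, adjusted p = 0.0464, 100000 resamples, n = 14). Without 14R and 26R, the tumors farthest from the median of Dcn, r was 0.83. With both tumors of a mouse averaged (n = 11 mice), r was 0.87 and did not pass the permutation test (adjusted p = 0.0659). Acta2 and Postn had an r of 0.77 and a rho of 0.78 (permutation p = 0.00563 and 0.00814, adjusted p = 0.0845 and 0.122), with r = 0.65 without 24L and 32R. This pair passed with mice averaged (r = 0.94, permutation adjusted p = 0.0365). Postn and Thy1 had an r of 0.62 (permutation adjusted p = 0.0845) and a rho of 0.80 (permutation adjusted p = 0.0464), and r was 0.56 without 14R and 24L.

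Pdgfra and Pdgfrb, which form dimers with each other, had an r of 0.78 and a rho of 0.72 (permutation p = 0.0116 and 0.0129, adjusted p = 0.102 and 0.145), which was 0.83 without 33R and 35L but 0.15 with mice averaged. Postn and Dcn, the markers called in opposite directions between groups, had an r of 0.10 and a rho of 0.05 within groups (permutation adjusted p = 0.923 and 0.955). Acta2, Postn, Fap, Lum, and Thy1 had positive correlations with each other in all 10 pairs, from 0.48 for Fap and Thy1 to 0.78 for Acta2 and Lum, none of which passed by Pearson's r.

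**Figure D5:**
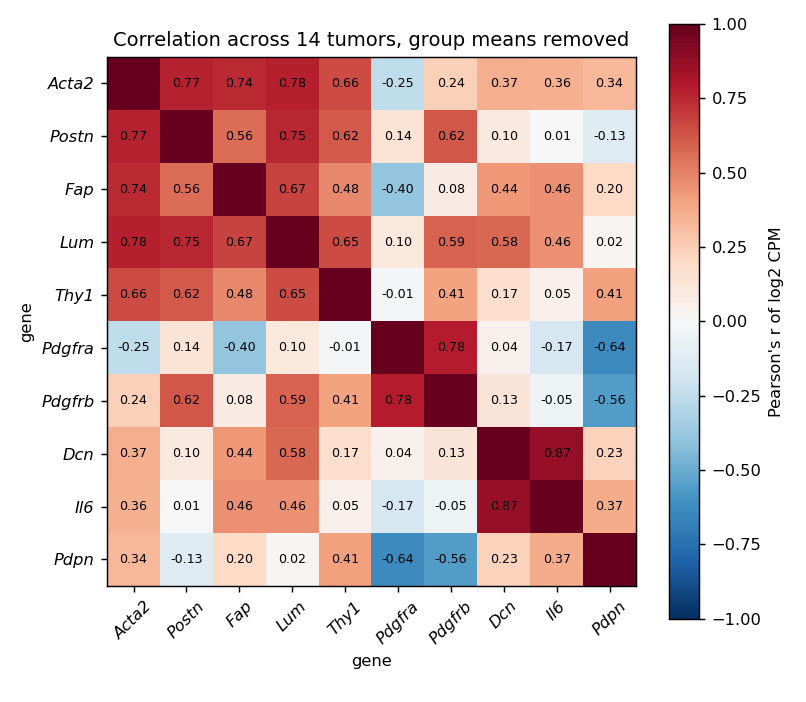
Pearson's r of log2 CPM for all 45 pairs of markers across 14 tumors after group means were removed, from -1 (blue) to 1 (red). Dcn and Il6 (0.87) form the pair with the highest r, the block of Acta2, Postn, Fap, Lum, and Thy1 is red throughout, and the lowest r is that of Pdgfra and Pdpn (-0.64).

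Pearson's r with each marker was also taken, after group means were removed, for 12203 genes with a mean log2 CPM of at least 1. The genes most like each marker over the 14 tumors are given as a description. Those of Postn were Col5a2 (r = 0.96), Col14a1 (r = 0.95), and Loxl2 (r = 0.95), which encode collagen chains and a collagen cross-linking enzyme, and those of Fap were Lox (r = 0.96), Pkdcc (r = 0.94), and Gpx3 (r = 0.94). For Pdgfrb they were Gpm6b (r = 0.91), Bcl9 (r = 0.91), and the collagen gene Col6a3 (r = 0.90). For Acta2 they were the neutrophil chemokine Cxcl2 (r = 0.93), Hcar2 (r = 0.91), and Sfrp2 (r = 0.91), and for Lum Hcar2 (r = 0.92), the procollagen protease Bmp1 (r = 0.90), and Nrbp2 (r = 0.89). Dcn was most like Apod (r = 0.91), Ift88 (r = 0.90), and Nek6 (r = 0.88), and Il6 was most like Lpcat4 (r = 0.88), Dcn (r = 0.87), and Zdhhc2 (r = 0.87). Among the genes most like Pdgfra were Phka2 (r = 0.96) and Gbf1 (r = 0.94). For Thy1 they were Cyhr1 (r = 0.89), Gpsm3 (r = 0.88), and Cx3cl1 (r = 0.87), and for Pdpn Procr (r = 0.87), Stx8 (r = 0.86), and Tsc22d1 (r = 0.85). The points of these correlations share library, depth, and, for 6 tumors, the mouse.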

How the data were processed

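Tumor RNA was enriched for poly-A and sequenced by the authors, who used STAR for alignment (mm10) and RSEM for quantification. These settings are described for the cell lines, and the tumor methods point to them. The deposited expected counts are RSEM's raw fragment estimates, and the deposited TPM values correct them for effective gene length, also deposited, with 1 total for all tumors. FPKM was not used. Of 53801 genes, 53620 matched a symbol in GENCODE M21.

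Groups came from the labels, and mouse and flank from tumor names. Tumors of 1 mouse are not independent: the paper reports that their sizes were positively correlated and that their barcode distributions were more alike than between mice. The main fit has no term for the mouse. The correlation within a mouse that limma-voom estimated here was negative, at -0.28. No files were identical, and the lowest chi-square per gene between tumors of a group was 21.2. Pairs with 33R were at 135 to 196 and pairs with 14R at 67.1 to 90.2, against at most 72.2 for the other pairs. Rounded expected counts entered edgeR 4.0.16 under R 4.3.3 (TMM, filterByExpr, quasi-likelihood test, Benjamini-Hochberg adjustment over 16287 genes), with all 14 tumors in 1 fit and no covariates. Called means an adjusted p under 0.05, and adjusted p-values without another name are those of edgeR. Log2 CPM used a prior count of 2. Permutation p-values (numpy 2.4.6) are two-sided, from 100000 resamples within groups, adjusted over 45 pairs. Floors of 3 counts cover counting error only. The study's methods name DESeq2, which was run here as an alternative (1.42.0), with limma 3.58.1.

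The markers and gene lists were chosen with earlier results of these data known. The genes named are the 10 markers, up to 2 called genes per list and direction with the largest change, members of lists that share a gene with the markers, and the 3 genes most like each marker, of which 1 is not reported here. The motifs and Krt18, Krt8, Epcam, Cldn7, and Prox1 were chosen after values were seen. Alternatives were other tests, normalizations, filters, and TPM scales, a gene length offset, the compared groups alone, 1 library per mouse, the omission of each tumor in turn, and covariates for flank and for skin or T cell markers.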

Additional observations from a re-analysis of the deposited data

How the results depend on the processing

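Dcn over control IgG tumors was called in 15 of 16 alternatives and in all 14 fits without 1 tumor, and Postn in 14 of 16 and 12 of 14. The number of markers called between responders and non-responders was 0 and became 1 (Dcn) with DESeq2, with limma-voom when tumors of a mouse were allowed to correlate, and with the skin epidermis list as a covariate, and was 0 to 1 without single tumors. Over control IgG tumors it was 2, with 1 when flank was a covariate (Dcn), 0 with the T cell list, and 1 to 3 without single tumors (3 without 26R, which adds Thy1). It stayed at 2 without 14R and 33R together. Among all genes, 1612 were called between responders and non-responders, against 535 with 1 library per mouse and 2973 with limma-voom and correlated tumors, and 567 to 1978 without single tumors. Over control IgG tumors 2147 were called, against 1388 with flank as a covariate and 3249 without 14R and 33R, and 1193 to 3385 without single tumors. Pairs of markers that passed by Pearson's r numbered 1, and 8 with log2(TPM + 1). The covariates and the omission of 14R and 33R were chosen after seeing the data. The causes were not tested.

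None of the log2 fold changes that turned sign belonged to a called marker. Responders over non-responders turned for Pdgfrb (0.049) to -0.066 with 1 library per mouse, -0.13 with a gene length offset, -0.20 with the T cell list, -0.049 without 14R and 33R, and -0.050 to 0.30 without single tumors. Fap and Thy1 turned to -0.30 and -0.25 with the T cell list, and Fap ranged from -0.096 to 0.41 without single tumors. On log2 TPM with pseudocounts of 1 and 0.1, Lum turned to 0.16 and 0.18 and Pdpn to 0.050 and 0.051, a scale on which the median of all genes shifted by 0.16 and 0.23. Lum ranged from -0.32 to 0.17 without single tumors. Responders over control IgG tumors turned to -0.073 for Pdgfra, -0.076 for Thy1, and -0.16 for Lum with the T cell list, and to 0.021 and 0.021 for Pdpn on the TPM scales. Non-responders over control IgG tumors turned on the TPM scales for Acta2 (-0.071 and -0.077) and Pdpn (-0.030 and -0.030), and for Pdgfra with 1 library per mouse (0.016) and without 14R and 33R (0.016). Without single tumors, Acta2 ranged from -0.11 to 0.21, Pdgfra from -0.24 to 0.071, and Il6 from -0.59 to 0.027. Il6 could not be tested with a minimum of 1 CPM in 4 tumors, and its 10 to 69 counts limit its precision. No paired analysis was possible because tumor names share no replicate number between groups.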
